A study of Homo sapiens with 11 samples.

Results

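The 10 genes described here, CTDSPL, TRIB2, BMPR2, NOX4, KBTBD8, RMND5A, THAP2, PPP1CB, AP1AR and ZBTB7A, are named as reported or predicted targets of the microRNAs miR-99a and miR-100. They were taken by symbol, and all 10 were found among the 19775 genes measured. Each gene was read from 1 probe set, the brightest on average of those listed with that gene alone. RNA came from Reh cells, an established human B-cell precursor leukaemia line with the ETV6-RUNX1 fusion, and every culture profiled, controls included, stably expressed miR-125b from a viral vector. On top of that, precursor oligonucleotides were introduced with Lipofectamine. The 2 control arrays received scrambled control miR #1 at 66 µM, 3 arrays miR-99a at 66 µM, 3 arrays miR-100 at 66 µM, and 3 arrays both at 33 µM each. A second dose followed 72 h after the first, and cells were taken 48 h later. The series asks whether these microRNAs change gene expression in cells in which resistance to the microtubule drug vincristine was also measured.

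A microRNA guides the silencing complex to messenger RNAs, mostly by pairing of its seed, the bases near its 5′ end, with sites in the 3′ untranslated region. Bound messages are translated less or degraded faster, so a target may fall in RNA level, in protein level only, or not at all. In leukaemia cells miR-99a, miR-100 and miR-125b are sometimes found high together, and miR-99a and miR-125b lie close to each other on chromosome 21, as miR-100 and a further copy of miR-125b do on chromosome 11.

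The mature sequences show what the 2 oligonucleotides share and how the microRNA of the stable line differs from them. They are the RefSeq entries on GRCh38.p14 for the 5p arms, written 5′ to 3′ with the seed, bases 2 to 8, in capitals. The labels do not name the arm.
hsa-miR-99a-5p, chr21:16539101-16539122, plus strand: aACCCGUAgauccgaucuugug
hsa-miR-100-5p, chr11:122152275-122152296, minus strand: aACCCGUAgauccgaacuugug
hsa-miR-99b-5p, chr19:51692618-51692639, plus strand: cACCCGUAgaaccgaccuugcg
hsa-miR-125b-5p, chr21:16590253-16590274, plus strand: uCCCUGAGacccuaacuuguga

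All 4 are 22 bases long. Counting from the 5′ end of miR-99a, miR-100 differs from it by U16A alone, and the other 21 bases are identical. The seed is the same in miR-99a, miR-100 and miR-99b, the 3 names that carry it among 2370 mature names in the table, and it pairs with the 7 bases UACGGGU in a message. The seed of miR-125b is another. No untranslated sequence of the 10 genes was searched for that site, so whether they carry it was not tested here. They are named as reported or predicted targets, but several came into the list after earlier readings of these arrays.

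Values are log2 signals as deposited, on which a difference of 1 is a 2-fold change. The signal of a probe set depends on its probes as well as on the RNA, so levels were compared between arrays and not as amounts between genes. Of 9 B-lineage markers measured, 8 were above 8 on all 11 arrays, with DNTT highest at a mean of 13.09. None of 6 T and NK, 5 myeloid, 4 erythroid and platelet or 6 fibroblast and epithelial markers reached 8, and their highest means were 5.97, 7.50, 6.60 and 7.07. The median of the B-lineage list was 11.17 to 11.31 in the 4 groups. The treated arrays with replicate number 3 stood apart from those numbered 1 and 2. Of 19775 genes, 5794 (29.3%) differed between them in limma at an adjusted p under 0.05, and there is no control array numbered 3. Results are therefore given with and without those 3 arrays. The growth protocol mentions triplicate incubation, but nothing ties an array to a separate culture, so p-values may measure technical spread.

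With each oligonucleotide treatment, none of the 10 genes passed the test across all genes, and neither did any other gene. In limma over all 11 arrays, 0 of 10 had an adjusted p under 0.05 in the miR-99a, miR-100 and combination groups, and the share of all genes called was 0% in each. At an unadjusted p under 0.05 there were 198 (1%), 305 (1.54%) and 724 (3.66%) of all genes, of which 0, 0 and 4 were among the 10. The differences were small and mostly downward. Over the 10 genes the median difference was -0.101 for miR-99a, -0.109 for miR-100 and -0.125 for the combination, against -0.006, -0.008 and -0.004 over all genes. Of the 10 genes, 6, 7 and 8 had a mean below control, while 53%, 54% and 51.8% of all genes did. In a fit of replicates 1 and 2 alone the medians were -0.056, -0.127 and -0.098, against 0.001, -0.013 and -0.001 over all genes, and again 6, 7 and 8 of the 10 lay below control. The medians over all genes are not matched on signal level. With miR-100 in that fit, genes of the levels of BMPR2, RMND5A, PPP1CB and AP1AR had medians of -0.131, -0.170, -0.153 and -0.134. For the levels of KBTBD8 and THAP2 they were 0.010 and -0.025. How much of the lower medians of the 10 goes with signal level was not tested. These comparisons share the same 2 control arrays, so a high control value lowers all 3 differences at once.

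All treated arrays lay below both control arrays for 6 of the 10 genes with miR-99a, where 7.88% of all genes did. These were BMPR2, KBTBD8, RMND5A, THAP2, PPP1CB and AP1AR. With miR-100 this held for 3 of 10, THAP2, PPP1CB and AP1AR, against 6.19% of all genes. With both oligonucleotides it held for the same 6 genes as with miR-99a, against 11.4%. With both, 20.1%, 26.2%, 23.2% and 20.7% of genes of the levels of BMPR2, RMND5A, PPP1CB and AP1AR did so. For KBTBD8 and THAP2 the shares were 8.1% and 9.9%. With miR-99a such shares ran from 5.4% (KBTBD8) to 13.9% (PPP1CB). Only THAP2, PPP1CB and AP1AR lay below control on all 9 treated arrays, where 1.6% of all genes did. Of genes of their signal levels, 1%, 3.7% and 2.1% did so. NOX4 lay above control on all arrays with miR-99a (7.55% of all genes) and on all arrays with both (9.11%). Several of the 10 genes came into the list after earlier readings of these arrays, so such counts describe the list and lend it no support.

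Without the replicate 3 arrays, the same 6 genes lay below control in each of the 3 treatments. The matching shares of all genes were then larger, 20%, 28.4% and 23%, and were not matched on signal level. No gene of the 10 passed in that fit either, while 0%, 0% and 1.47% of all genes did. In these bulk cultures, fewer cells that express a gene and less of its RNA per cell cannot be told apart.

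**Figure D1:**
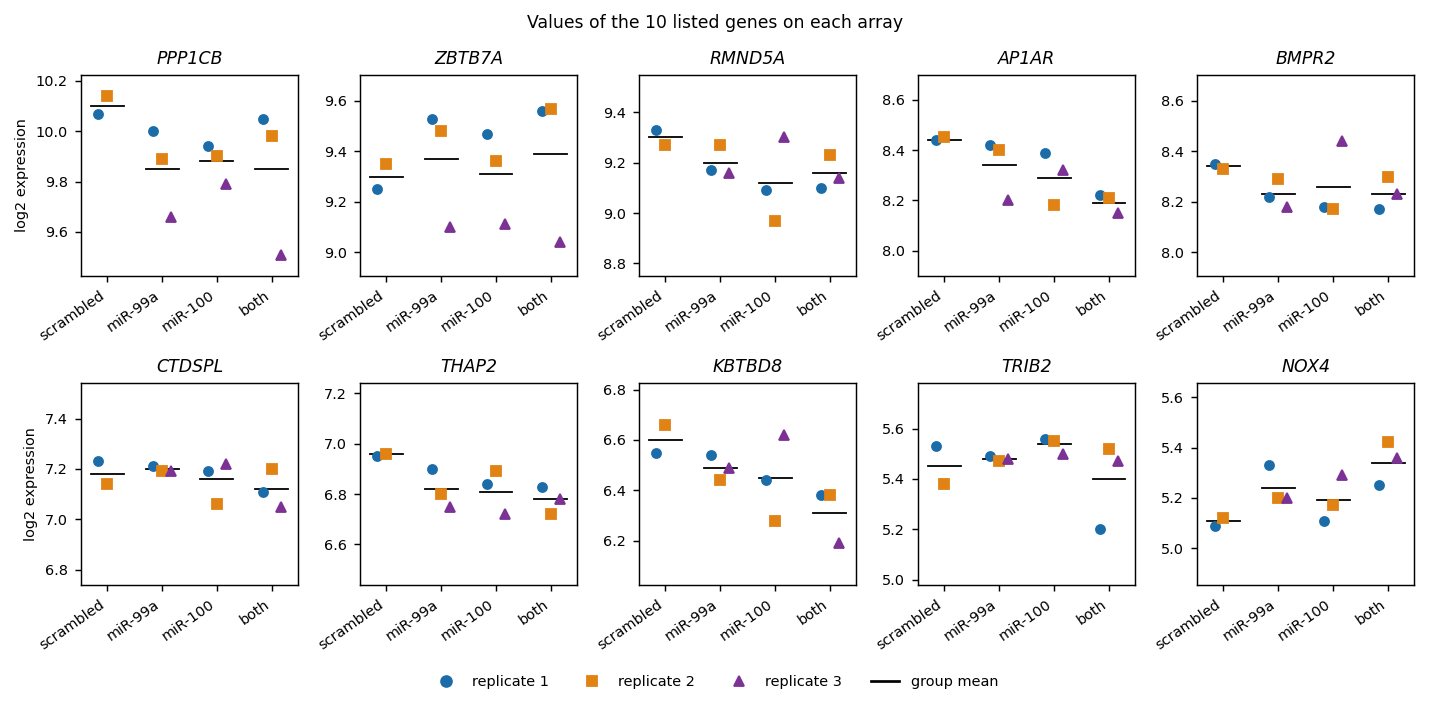
Log2 signal of each of the 10 genes (vertical axes, each spanning 0.8 log2 units but at its own level) on the 11 arrays by group; points are arrays, shaped and coloured by replicate number, and lines are group means. THAP2, PPP1CB and AP1AR sit below both scrambled arrays on all 9 treated arrays, and the replicate 3 arrays of ZBTB7A, from 9.04 to 9.11, sit below all its other arrays.

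**Figure D2:**
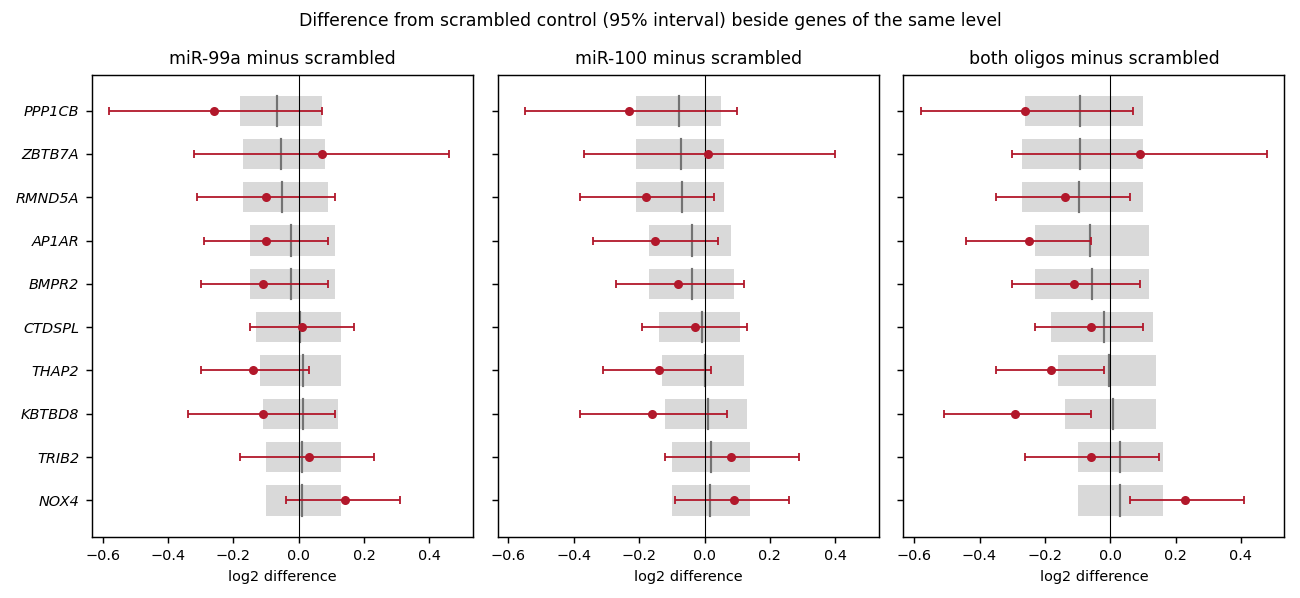
Log2 difference from scrambled control (horizontal axes) for each gene with miR-99a, miR-100 and both oligonucleotides; points are limma estimates with 95% intervals, grey bars span the 5th to 95th percentile of other genes within 0.25 of the gene's mean signal, and grey ticks are their medians. The interval lies wholly below 0 for KBTBD8, AP1AR and THAP2 and wholly above 0 for NOX4 with both, before adjustment over all genes.

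Among signalling proteins, BMPR2, the type II receptor kinase for bone morphogenetic proteins, was 8.35 and 8.33 on the control arrays. It was 8.22, 8.29 and 8.18 with miR-99a, 8.18, 8.17 and 8.44 with miR-100, and 8.17, 8.30 and 8.23 with both. Of the 9 treated arrays 8 lay below the controls, and miR-100 replicate 3 lay above them. With miR-99a the difference was -0.11 ± 0.09, with miR-100 -0.08 ± 0.09 and for the combination -0.11 ± 0.09 (± SE, here and for each difference below; 3 treated and 2 control arrays), with an adjusted p of 1 in each. Without the replicate 3 arrays the miR-100 value was -0.16 ± 0.08 (adjusted p 0.31). Among 1184 genes of the same signal level, 12.5%, 33.3% and 31.8% had lower differences, and 35.1%, 40.4% and 40.6% did in replicates 1 and 2 alone, so BMPR2 lay inside the run of such genes.

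NOX4, the catalytic subunit of an NADPH oxidase that makes hydrogen peroxide, had the largest upward difference of the 10 genes over all 11 arrays. Its signal was 5.09 and 5.12 in control, 5.33, 5.20 and 5.20 with miR-99a, 5.11, 5.17 and 5.29 with miR-100, and 5.25, 5.42 and 5.36 with both. The arrays of miR-99a and of both lay above the controls, and those of miR-100 reached down to them. With both, the difference was 0.23 ± 0.08 (95% interval 0.06 to 0.41, unadjusted p 0.0144, adjusted p 1), and 99.1% of 3293 genes of the same level had lower values. The other NOX4 probe set, 236843_at, ran from 4.92 to 5.11 and differed by -0.05 ± 0.07 with both. The mean of the 2 probe sets differed by 0.09. The probe set used had a mean of 5.23, above only 9.7% of genes, so its signal was dim and need not reflect detected RNA.

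CTDSPL, a phosphatase that removes phosphates from the retinoblastoma protein RB1, hardly moved. It was 7.23 and 7.14 in control, 7.21, 7.19 and 7.19 with miR-99a, 7.19, 7.06 and 7.22 with miR-100, and 7.11, 7.20 and 7.05 with both. The groups overlapped throughout. The differences were 0.01 ± 0.07, -0.03 ± 0.07 and -0.06 ± 0.07, and the 95% interval with both was -0.23 to 0.10.

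PPP1CB, a catalytic subunit of protein phosphatase 1, had the largest mean difference from control over all treatments when all 11 arrays were used, -0.25 ± 0.13 (unadjusted p 0.0773, adjusted p 1). In replicates 1 and 2 alone it was -0.15, smaller in size than ZBTB7A at 0.20, KBTBD8 at -0.19 and RMND5A at -0.16. Its signal was 10.07 and 10.14 in control, 10, 9.89 and 9.66 with miR-99a, 9.94, 9.90 and 9.79 with miR-100, and 10.05, 9.98 and 9.51 with both. All 9 treated arrays were below both controls, but in each treatment the replicate 3 array was lowest. The differences were smaller without those arrays. With miR-99a the value was -0.26 ± 0.15 with them and -0.16 ± 0.08 without, with miR-100 -0.23 ± 0.15 and -0.18 ± 0.08, and with both -0.26 ± 0.15 and -0.09 ± 0.08. The adjusted p without them was 0.538, 0.247 and 0.665. Of genes of its level, 0%, 2.1% and 5% had lower differences over all arrays and 17.7%, 41.8% and 46.8% without those numbered 3.

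TRIB2, a pseudokinase that brings the ubiquitin ligase COP1 to the transcription factor C/EBPα, showed no common direction. It was 5.53 and 5.38 in control, 5.49, 5.47 and 5.48 with miR-99a, 5.56, 5.55 and 5.50 with miR-100, and 5.20, 5.52 and 5.47 with both. The 2 controls spanned most of the treated values, and only combination replicate 1 stood away, at 5.20. The differences were 0.03 ± 0.09, 0.08 ± 0.09 and -0.06 ± 0.09. Without combination replicate 1 the last of these was 0.04. The mean signal of TRIB2, 5.47, was above only 18.8% of genes and so was dim as well.

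Among ubiquitin ligase subunits, KBTBD8, a substrate adaptor of the CUL3 ligase known for its part in neural crest formation, had the largest downward difference of the 10 with both oligonucleotides over all 11 arrays. Its signal was 6.55 and 6.66 in control, 6.54, 6.44 and 6.49 with miR-99a, 6.44, 6.28 and 6.62 with miR-100, and 6.38, 6.38 and 6.19 with both. All 3 combination arrays were below both controls and below all miR-99a arrays, while miR-100 replicate 3 lay between the controls. The difference with both was -0.29 ± 0.10 (95% interval -0.51 to -0.06, unadjusted p 0.0164, adjusted p 1), and 0.2% of 1775 genes of the same level were lower. With miR-99a it was -0.11 ± 0.10 and with miR-100 -0.16 ± 0.10. Without the replicate 3 arrays the values were -0.11, -0.24 and -0.22 ± 0.08, with adjusted p of 0.72, 0.137 and 0.185, and 1.5% of genes of its level were lower with both. With replicate 3 as a term in the fit of all arrays, the adjusted p with both was 0.0829. With the replicate number as a block in limma the difference was -0.30 (adjusted p 0.0446), so the call depends on the fit. Under that block 4.36% of all genes passed. KBTBD8 is the one gene of the 10 with a single probe set, so no second set of probes reads it.

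RMND5A, a RING subunit of the CTLH ubiquitin ligase complex, was 9.33 and 9.27 in control. It was 9.17, 9.27 and 9.16 with miR-99a, 9.09, 8.97 and 9.30 with miR-100, and 9.10, 9.23 and 9.14 with both. The lowest values were miR-100 replicates 1 and 2, but miR-100 replicate 3 lay between the controls, and miR-99a replicate 2 equals the lower control at this rounding. The miR-100 difference was -0.18 ± 0.09 (unadjusted p 0.0839, adjusted p 1) over all arrays and -0.27 ± 0.08 (adjusted p 0.118) without the replicate 3 arrays. With miR-99a it was -0.10 ± 0.09 and with both -0.14 ± 0.09. Bright genes as a class lay lower with treatment: the 935 genes of the level of RMND5A had medians of -0.051, -0.070 and -0.095 in the 3 comparisons, and 23.9%, 9.9% and 31.3% of them were lower than RMND5A. In replicates 1 and 2 alone the medians were -0.061, -0.170 and -0.092, and 41.4%, 15.6% and 38.7% were lower.

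AP1AR, also called gadkin, links AP-1-coated vesicles to kinesin and holds the Arp2/3 complex in check. It was 8.44 and 8.45 in control, 8.42, 8.40 and 8.20 with miR-99a, 8.39, 8.18 and 8.32 with miR-100, and 8.22, 8.21 and 8.15 with both. All 9 treated arrays were below both controls, narrowly in miR-99a replicates 1 and 2 and by more in all 3 combination arrays. The difference with both was -0.25 ± 0.09 (95% interval -0.44 to -0.06, unadjusted p 0.0141, adjusted p 1) and -0.23 ± 0.08 without the replicate 3 arrays (adjusted p 0.167). With miR-99a it was -0.10 ± 0.09, but -0.03 ± 0.08 without them, and with miR-100 -0.15 ± 0.09 and -0.16 ± 0.08. Of 1181 genes of its level, 3.6% were lower with both, where the median of those genes was -0.061. The share was 15.4% with miR-99a and 8.6% with miR-100. In replicates 1 and 2 alone the 3 shares were larger, 11.6% with both, 53.5% with miR-99a and 42.8% with miR-100.

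Of the DNA-binding proteins, THAP2, a little-studied member of the THAP zinc finger family, was 6.95 and 6.96 in control. It was 6.90, 6.80 and 6.75 with miR-99a, 6.84, 6.89 and 6.72 with miR-100, and 6.83, 6.72 and 6.78 with both. All 9 treated arrays were below both controls, and the treatments overlapped one another fully. The differences were alike in size, -0.14 ± 0.08, -0.14 ± 0.08 and -0.18 ± 0.08, and the mean of all treatments was -0.15 ± 0.06 (95% interval -0.30 to -0.01, unadjusted p 0.036, adjusted p 1). When the replicate 3 arrays were left out, they were -0.11, -0.10 and -0.18 ± 0.08. Genes of the level of THAP2 centred near 0, with medians of 0.014, 0.001 and -0.004, and 3%, 3.5% and 3.4% of 1360 such genes were lower. In replicates 1 and 2 alone the medians were 0.004, -0.025 and -0.013, and 13%, 26% and 6% were lower.

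ZBTB7A, a POK-family repressor of transcription that acts in B-cell fate and in leukaemia, was above control in replicates 1 and 2 and below it in replicate 3. It was 9.25 and 9.35 in control, 9.53, 9.48 and 9.10 with miR-99a, 9.47, 9.36 and 9.11 with miR-100, and 9.56, 9.57 and 9.04 with both. The treated arrays numbered 1 and 2 were all above both controls, and those numbered 3 were all below them. The differences over all arrays were 0.07 ± 0.18, 0.01 ± 0.18 and 0.09 ± 0.18, the widest errors of the 10 genes. Without the replicate 3 arrays the differences were 0.21, 0.12 and 0.27 ± 0.08, with adjusted p of 0.401, 0.51 and 0.0939. Genes of its level had medians of -0.055, -0.071 and -0.092 over all arrays, below the ZBTB7A values in each comparison, and 93.9%, 86.5% and 94.4% of them were lower. In replicates 1 and 2 alone the medians were -0.060, -0.168 and -0.094, and 93.8%, 95% and 96.8% were lower.

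Set against the control array of the same number, each gene gave 6 differences, from replicates 1 and 2 of the 3 treatments. All 6 were below 0 for BMPR2 (-0.18 to -0.03), KBTBD8 (-0.38 to -0.01), RMND5A (-0.30 to -0.01), THAP2 (-0.25 to -0.05), PPP1CB (-0.25 to -0.02) and AP1AR (-0.27 to -0.02). These are 6 of 10 genes, where 16.55% of all genes, not matched on signal level, did the same. They are the 6 that lay below both controls in each treatment without replicate 3, so this count follows from that one. All 6 were above 0 for NOX4 (0.02 to 0.30) and ZBTB7A (0.01 to 0.32), 2 of 10 genes, where 8.61% of all genes did so. CTDSPL had 4 of 6 below 0 (-0.11 to 0.06) and TRIB2 had 2 of 6 (-0.33 to 0.17). The 6 differences of a gene share 2 control arrays and are not 6 independent measurements. Genes of the same level moved too in some pairs, most of all in miR-100 replicate 2, where 57.5% of all genes were below control against 48.4% to 53.3% in the other 5 pairs.

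**Figure D3:**
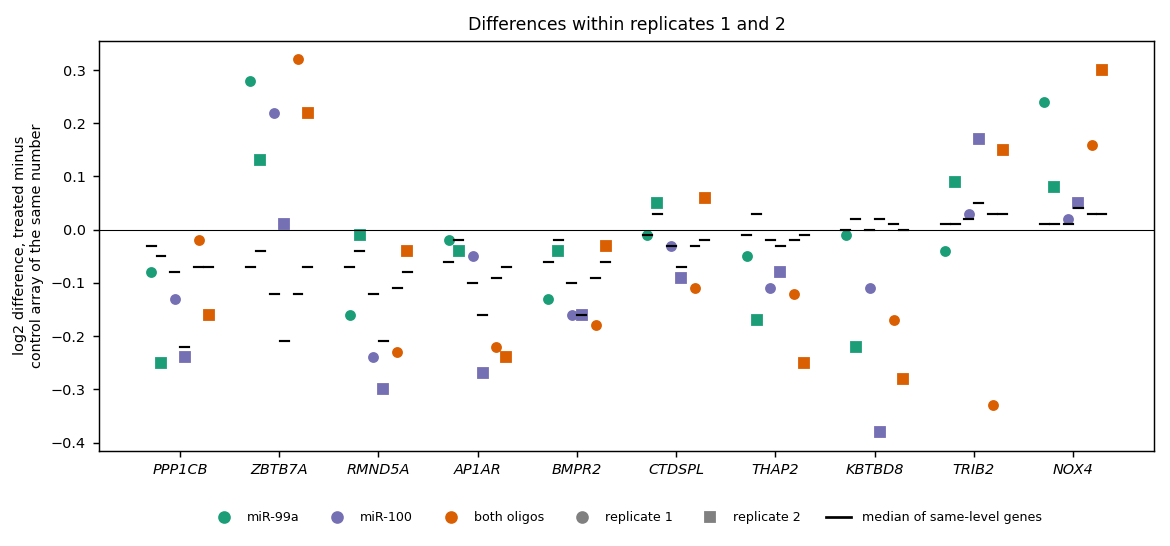
Log2 difference of each treated array from the control array of the same number (vertical axis) for the 10 genes; colour gives the treatment, shape the replicate number, and black ticks the median of genes of the same signal level in that pair. BMPR2, KBTBD8, RMND5A, THAP2, PPP1CB and AP1AR have all 6 points below 0, and NOX4 and ZBTB7A all 6 above it.

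The 2 oligonucleotides, which differ by U16A, were compared directly for each of the 10 genes, with p-values adjusted over all genes. In limma, 0 of 10 passed for miR-100 against miR-99a (0% of all genes, with 194 genes at an unadjusted p under 0.05), and the smallest unadjusted p among the 10 was 0.375. The largest difference was that of RMND5A, -0.08 ± 0.08, with a 95% interval of -0.26 to 0.11. THAP2 and BMPR2 differed by 0.00 ± 0.07 and 0.03 ± 0.08. The intervals, the widest being -0.41 to 0.29 for ZBTB7A, do not show that the oligonucleotides act alike. Over all arrays only TRIB2 had no overlap, with all miR-100 arrays above all miR-99a arrays (2.42% of all genes), by 0.06 ± 0.08. Without the replicate 3 arrays the RMND5A difference was -0.19 ± 0.08 (adjusted p 0.764), and BMPR2 turned to -0.08 ± 0.08. In that fit 8 of 10 were lower with miR-100, as were 63.4% of all genes. All miR-100 arrays then lay below all miR-99a arrays for BMPR2, NOX4, KBTBD8, RMND5A, AP1AR and ZBTB7A. These are 6 of 10 genes, where 26.4% of all genes did so. TRIB2 again lay above, as did 12.7% of all genes.

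Both oligonucleotides together, at 33 µM each, were compared with the mean of the single ones at 66 µM. Again 0 of 10 passed in limma (0% of all genes, with 451 genes at an unadjusted p under 0.05), and 8 of 10 had a lower mean with both, against 51.5% of all genes. This was 5 of 10 in replicates 1 and 2 alone, against 45.5% of all genes, and the median of the 10 was 0.006. Over all arrays KBTBD8 was -0.15 ± 0.08, AP1AR -0.13 ± 0.07 and TRIB2 -0.11 ± 0.07, while NOX4 was 0.12 ± 0.06, with unadjusted p from 0.0736 to 0.158 and an adjusted p of 1. Left to replicates 1 and 2, KBTBD8 was -0.04 ± 0.07 and AP1AR -0.14 ± 0.07, and neither passed. RMND5A, at 0.00 ± 0.07, and PPP1CB, at -0.02 ± 0.11, were near 0, with 95% intervals of -0.16 to 0.16 and -0.27 to 0.24.

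The 10 genes have 35 probe sets in all, so 25 others could be read. None passed in any comparison with a treatment, as was so of all 41091 probe sets. Those of PPP1CB lay on the same side, with 201407_s_at at -0.21 ± 0.22, 201409_s_at at -0.16 ± 0.20 and 228222_at at -0.08 ± 0.20 over all treatments beside -0.25 ± 0.12 for the one used. These values include the replicate 3 arrays, in which the same other probe sets fell by 0.61, 0.57 and 0.57. On arrays numbered 1 and 2 their treated values overlapped control. They were 9.68 to 9.95 (control 9.61 and 10.06), 9.89 to 10.2 (9.98 and 10.08) and 9.03 to 9.34 (9.16 and 8.91). RMND5A also had one direction, -0.18 ± 0.10 for 212479_s_at and -0.09 ± 0.07 for 212478_at beside -0.14 ± 0.08. For THAP2 the others gave -0.14 ± 0.11 and -0.06 ± 0.11, both at signals under 6. For AP1AR, 242753_x_at gave -0.15 ± 0.09, near the -0.17 ± 0.07 of the one used, and with both oligonucleotides -0.22 ± 0.10. The dim 231010_at, at a mean of 5.12, gave 0.05 ± 0.07. BMPR2 had 6, of which 5 lay between -0.16 and -0.03 and the dimmest, at 5.43, gave 0.08 ± 0.09. The 5 other ZBTB7A probe sets had mean signals of 5.49 to 6.56, against 9.35 for the one used, and differed by -0.05 to 0.13. The 4 others of CTDSPL ran from -0.01 to 0.07, and that of TRIB2 was 0.05 ± 0.06.

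**Figure D4:**
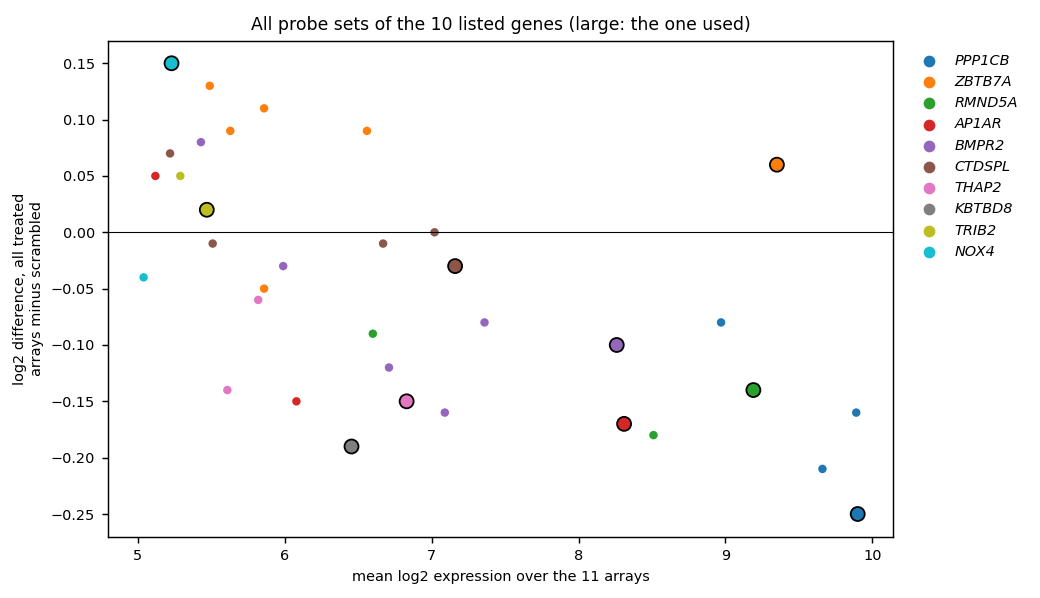
Mean log2 signal over the 11 arrays (horizontal axis) against the log2 difference of all treated arrays from scrambled control (vertical axis) for the 35 probe sets of the 10 genes, coloured by gene; large outlined points are the probe sets used. With the replicate 3 arrays included, the probe sets of PPP1CB and RMND5A all lie below 0, while those of NOX4 and AP1AR lie on both sides.

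Within the 9 treated arrays, PPP1CB and ZBTB7A differed between replicate 3 and replicates 1 and 2. These 2 of 10 genes passed, both lower, where 12.2% of all genes passed lower. ZBTB7A fell by 0.41 (± 0.07, limma adjusted p 2e-06), with replicate 3 lower by 0.41, 0.30 and 0.53 in the miR-99a, miR-100 and combination groups. PPP1CB fell by 0.31 (± 0.07, adjusted p 0.000359), and by 0.28, 0.13 and 0.51 in the 3 groups. Without combination replicate 3 its value was -0.20 and the call was lost (adjusted p 0.0582). All 3 replicate 3 arrays lay below all 6 others for both genes, as they did for 11% of all genes.

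The probe sets of PPP1CB moved together and those of ZBTB7A did not. All 4 of PPP1CB fell, by 0.61, 0.31, 0.57 and 0.57, each at an adjusted p under 0.05 over all probe sets, of which 24.5% passed. For ZBTB7A only the bright one passed, and the other 5 gave -0.17 to -0.01. The 8 other genes did not pass and had means within -0.08 to 0.07, but arrays of one number did not all move together. BMPR2, KBTBD8 and RMND5A differed between replicate 3 and replicates 1 and 2 by 0.26, 0.26 and 0.27 with miR-100, and by -0.01, -0.19 and -0.02 with both. For BMPR2, 209920_at rose by 0.29 in replicate 3 (limma adjusted p 0.000593 over all probe sets). Its 231873_at and 1556075_at fell by 0.21 and 0.19 (adjusted p 0.0224 and 0.0326). The probe set used gave 0.06 (adjusted p 0.604), so the reading of BMPR2 in replicate 3 depends on the probe set. The part that replicate 3 has in the comparisons with control was not tested beyond the fits with and without it.

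**Figure D5:**
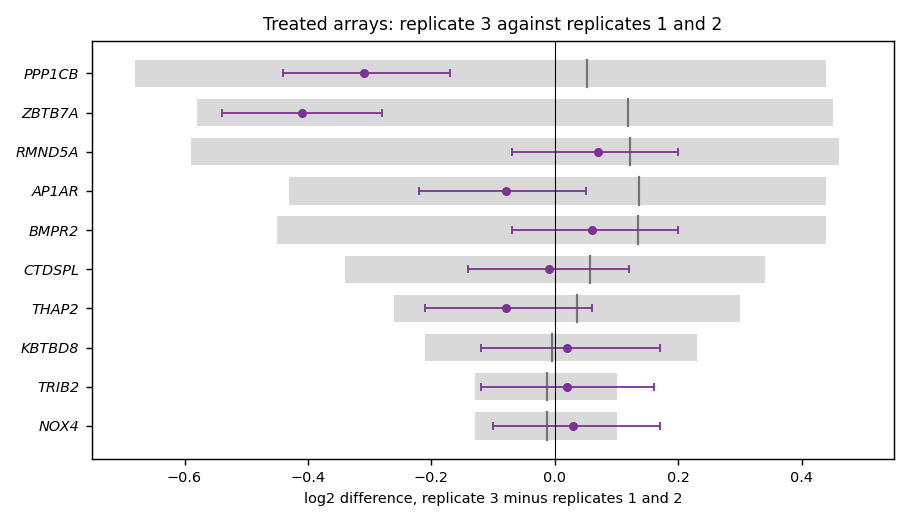
Log2 difference between replicate 3 and replicates 1 and 2 among the 9 treated arrays (horizontal axis) for the 10 genes; points are limma estimates with 95% intervals, and grey bars and ticks give the 5th to 95th percentile and the median of genes of the same signal level. ZBTB7A and PPP1CB lie below 0 with their whole intervals, inside the wide spread of genes as bright as they are.

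Over the 11 arrays some of the 10 genes ran alike. Pearson's r was 0.87 between RMND5A and BMPR2, 0.75 between AP1AR and KBTBD8, 0.73 between KBTBD8 and CTDSPL, and 0.71 between ZBTB7A and PPP1CB. NOX4 and THAP2 ran oppositely, at -0.62. The arrays share treatments and replicate numbers, so these are descriptions. Among the 8136 genes with a mean of at least 7, the one most like RMND5A was RCN1 (r 0.985, Spearman's rho 0.98), the one most like AP1AR was NUS1 (0.971 and 0.982), and the one most like ZBTB7A was NOL4 (0.988 and 0.955). PPP1CB was most like STK17A (0.976 and 0.955), but r was 0.877 over the 8 arrays numbered 1 and 2. BMPR2 was most like PID1 (0.943 and 0.861) and CTDSPL most like CCDC85C (0.931 and 0.918). Each match was picked as the highest of 8136, so its size is no measure of a tie between the genes.

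The partners of each gene were read from 10 pathway lists with 106 genes, of which 99 were measured. In limma over all 11 arrays none passed with any treatment (0 of 99 rose and 0 fell, as of all genes). With replicate 3 as a term, 2 of 99 rose and 3 fell with both, where 2.24% of all genes passed. CEBPB, the transcription factor C/EBPβ, rose by 0.42 (adjusted p 0.0325) and the phosphatase inhibitor PPP1R11 by 0.35 (adjusted p 0.0292), while REST fell by 0.34 (adjusted p 0.0346), KBTBD7 by 0.33 (adjusted p 0.0459) and the myosin phosphatase subunit PPP1R12A by 0.29 (adjusted p 0.0495). With replicates 1 and 2 alone, CEBPB and PPP1R11 rose with both and none fell, where 1.47% of all genes passed. For all treatments in that fit CTDSP1 and PPP1R11 rose, where 1% of all genes passed. None of the 99 passed with miR-99a or miR-100 alone in these 2 fits, and CEBPB, PPP1R11, PPP1R12A and CTDSP1 are named after their values were seen. The 2 genes with the smallest p in each list are given as means of all treatments against control, each with an adjusted p of 1 over all 11 arrays. In the BMP pathway of BMPR2 they were SMAD1 at -0.19 ± 0.08 and SMAD5 at -0.19 ± 0.09, the proteins that carry the receptor's signal to the nucleus. Over the 14 genes measured there the medians were -0.009, -0.030 and -0.033 with miR-99a, miR-100 and both. In the list of CTDSPL they were RB1, its substrate, at -0.17 ± 0.07 and the repressor REST at -0.18 ± 0.09, and the medians were -0.081, -0.100 and -0.163 over 8 genes. For NOX4, the oxidase subunits NOX1 and NOX5 both gave 0.08, with SE of 0.07 and 0.06, at signals near 6.

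For KBTBD8, the adaptors KBTBD7 and KBTBD6 gave -0.21 ± 0.10 and -0.11 ± 0.09. In that CUL3 list 8, 9 and 8 of 9 genes had means below control, with medians of -0.053, -0.091 and -0.161, where 53%, 54% and 51.8% of all genes did. Those counts were 6, 8 and 7 of 9 in replicates 1 and 2 alone, where 49.7%, 54.3% and 50.4% of all genes did. The lists did not all lean this way. Over all 11 arrays the counts were 8, 9 and 8 of 11 in the list of RMND5A. They were 4, 4 and 2 of 10 in that of NOX4, and 5, 4 and 3 of 8 in that of TRIB2. For RMND5A, the CTLH substrate receptor GID4 gave -0.13 ± 0.10 and the paralogue RMND5B 0.09 ± 0.06. For PPP1CB, SHOC2, which recruits the phosphatase to RAF kinases, gave -0.21 ± 0.07 and the regulatory subunit PPP1R7 -0.11 ± 0.11. For THAP2, its relatives THAP12 and THAP5 gave -0.21 ± 0.08 and -0.21 ± 0.09. For TRIB2, its ligase COP1 gave -0.16 ± 0.08 and AKT1, itself a reported target, 0.08 ± 0.09. The AP-1 subunits AP1M1 and AP1S3 gave 0.13 ± 0.07 and 0.08 ± 0.06 beside AP1AR, and BCL6 and ZBTB7C gave -0.09 ± 0.12 and 0.11 ± 0.09 beside ZBTB7A. Replicate 3 differed in more of these genes than treatment did, with 22 of 99 higher and 20 lower, 42.4% of the genes against 29.3% of all genes. That 29.3% is not matched on signal level. A fit of only the genes at or above the median level called 5641, nearly as many as the 5794 of the fit of all genes. Whether 42.4% is high for genes of these levels was not tested.

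Over all 11 arrays, other reported and predicted targets of the family had medians nearer 0. Over 12 further reported targets measured the medians were 0.026, -0.002 and -0.010 with miR-99a, miR-100 and both, and over 17 further predicted ones -0.004, -0.036 and -0.006, against -0.101, -0.109 and -0.125 for the 10. In replicates 1 and 2 alone the medians were 0.017, -0.125 and -0.008 for the reported ones and -0.042, -0.105 and -0.010 for the predicted ones, against -0.056, -0.127 and -0.098. With miR-100 those of the 3 lists then lay close together. None of either list passed in limma. FKBP5, which binds the glucocorticoid receptor complex, gave -0.16 ± 0.08 over all treatments and the chromatin protein BAZ2A 0.12 ± 0.06. Of the predicted ones, EPDR1 gave -0.15 ± 0.08 and the nuclear receptor NR6A1 0.13 ± 0.07. The difference between the 10 genes and these lists was not tested, and the lists were not matched on signal level. Several of the 10 came into their list after earlier readings of these arrays, so their lower medians lend them no support.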

How the data were processed

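Expression was measured on 11 Affymetrix arrays, labelled with the maker's one-cycle and IVT kits, per the labels' protocols. The deposited table holds log2 signals, as judged from values between 4.398 and 14.839, with array medians of 5.95 to 5.984. How the authors summarised and normalized them was not given in the sources used here. Arrays carry no read depth, so their number limits the precision.

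Of 54675 probe sets, 62 controls, 1801 with several genes and 11721 without a gene were left out. Gene names came from the platform annotation, and 41037 of the remaining 41091 matched RefSeq gene identifiers (GRCh38.p14). The brightest probe set by mean over the 11 arrays stood for each of 19775 genes, with no filter on dim genes. Group means were fitted over all 11 arrays with limma 3.58.1 (lmFit, eBayes) in R 4.3.3. P-values are 2-sided and Benjamini-Hochberg adjusted over all genes within a comparison, with a threshold of 0.05. Replicate 3 was compared within the 9 treated arrays with treatment as a term. Genes of the same level are those within 0.25 of a gene's mean. The fit was tested on simulated data.

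The rule for named genes took the 10 listed genes, the 2 smallest p in each pathway or target list for all treatments against control, plus any that passed there (none did), and the most alike gene (mean of at least 7). The 10 genes, lists, comparisons and alternatives were chosen with earlier results of these data known. As a check of pairing, arrays of one number were compared after removing group means. Treated pairs correlated at 0.168 to 0.816 and control with treated pairs at -0.152 to 0.438. Once their mean is removed, the 2 control arrays mirror each other, and replicate 3 arrays enter the treated means only. The check therefore cannot decide whether the numbers pair the arrays. The main fit did not take them as pairs.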

Additional observations from a re-analysis of the deposited data

How the results depend on the processing

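In the comparisons with a treatment no gene passed in limma over all 11 arrays, nor after quantile normalization, with only genes at or above the median level, with the mean of a gene's probe sets, with only the arrays of the groups compared, or with any 1 array left out (0 in each). With the replicate number as a replicate block, 5 genes passed for miR-99a, 7 for miR-100, 863 (4.36%) for both, 507 for all treatments, 1 for miR-100 against miR-99a and 1 for both against single. KBTBD8 with both was then -0.30 (adjusted p 0.0446), the only call among the 10 genes under any of these settings. The adjusted p of KBTBD8 with both ranged from 0.0446 to 1 over the settings. Of the 99 pathway genes, 2 rose and 6 fell with both under the block, and 3 rose and 2 fell for all treatments. With replicate 3 as a term, 443 genes passed for both and 24 for all treatments. With replicates 1 and 2 only, 290, 198 and 1 passed for both, all treatments and miR-100 against miR-99a. Adding the replicate block to replicates 1 and 2, chosen after seeing the data, gave 47, 322, 754, 1146, 1 and 26 in the order above, and none of the 10 genes.

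The 5794 genes that differed in replicate 3 became 6170 after quantile normalization, 5641 among brighter genes, 4726 with probe set means, and 4614 to 5894 with 1 array left out. ZBTB7A passed throughout, though at -0.12 (adjusted p 0.0483) with probe set means, where PPP1CB was -0.52, and AP1AR passed only after quantile normalization (-0.16, adjusted p 0.0339). With 2 control arrays, an SE of 0.07 to 0.18 for a gene against control leaves small changes undetectable.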
